A study of Homo sapiens with 9 samples.

Results

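The mRNAs of 10 folding factors of the endoplasmic reticulum (ER) were followed in eCLIP libraries of MDH2, the malate dehydrogenase of mitochondria. They were chosen by name: HSPA5, DNAJB11, SDF2L1 and HYOU1 of the HSP70 cycle, the lectin chaperones CALR and CANX, and the disulfide isomerases P4HB, PDIA3, PDIA4 and PDIA6. In hg38, HSPA5 lies at chr9:125234853-125241382, CANX at chr5:179678628-179731641 and P4HB at chr17:81843159-81860856. The count table held exon windows for 9 of them, 1573 of 2564772 exon windows in all, spread over 101 of 174054 exons and among 29166 genes. HYOU1 was not analysed here. eCLIP sequences the RNA that UV light has joined to a protein, and each read marks a cross-link site. The libraries came from Huh7 cells, a human line derived from a hepatocellular carcinoma, with 3 libraries in each of 3 groups, and the cells carried no other treatment in the labels. The MDH2 IP used an antibody to MDH2, and the IgG IP used an isotype-matched IgG on the same kind of lysate. The size-matched input (SMI) is a share of the lysate that did not go through the IP. Amplification took 14 PCR cycles for both kinds of IP and 9 for SMI, so the comparison of either IP with SMI also compares these cycle numbers. The labels do not say whether replicates came from separate cultures, and p-values then measure the spread between these libraries.

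Proteins that enter the secretory pathway are folded in the ER lumen. HSPA5 (BiP) is the HSP70 there, DNAJB11 is a J-domain partner that delivers substrates to it, SDF2L1 works with DNAJB11, and HYOU1 exchanges nucleotide on HSPA5. CALR and CANX are a soluble and a membrane-bound lectin that hold newly made glycoproteins, and PDIA3 is the disulfide isomerase that docks on both. P4HB (PDI) is the main disulfide isomerase, and PDIA4 and PDIA6 belong to the same thioredoxin-fold family. Hepatocytes secrete large amounts of plasma protein, and these mRNAs, translated on the ER surface, are abundant in such cells. The unfolded protein response raises many of them together.

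Exon window counts per library ranged from 3249974 to 5078220 in the MDH2 IP, from 3651665 to 4657949 in SMI and from 506441 to 1134432 in the IgG IP, so the IgG IP gave the least precise values. A site enters up to 3 overlapping windows, and sums over windows therefore exceed the number of sites. Of the 12 hepatocyte markers checked, 12 had exon counts in every group, with a summed level from 7299 to 15137 CPM per library, which are counts scaled to a common library size. The 10 markers of other cell types summed to between 72.5 and 119 CPM, and most of this was KRT19 and EPCAM, markers of bile duct and other epithelia, with 1338 and 473 counts over all 9 libraries. CD68 of macrophages and PECAM1 of endothelium had 248 and 226 counts, and the other markers had 2 (VWF) to 48 (COL3A1). Levels below are CPM of exon window counts, with library sizes adjusted by TMM (the trimmed mean of M values). A count depends both on how much of an mRNA was present and on how often it was cross-linked, and the libraries alone cannot tell these apart.

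Windows that later stood out as enriched in the MDH2 IP over SMI were placed on the genome for 3 members, CALR, PDIA4 and HSPA5. The enriched windows of P4HB, CANX and PDIA3 were not placed. For each of the 3 members, 30 bases are shown because they belong to the windows called in that comparison. They are read from the hg38 genome in the direction of the transcript, with runs of at least 4 purines in capitals. Positions assume that window numbers start at the low end of the matching GENCODE v44 exon. That exon predicts as many windows as were listed for CALR (38) and PDIA4 (9), and 16 against 15 listed for HSPA5.
CALR exon 7, chr19:12943783-12943812, plus strand: aacgcAAAGAGGAGGAGGAGGcAGAGGAca
PDIA4 exon 6, chr7:149012315-149012344, minus strand: aaacttgcccccgagtatGAGAAGGccgcc
HSPA5 exon 1, chr9:125241295-125241324, minus strand: cagacagattgacctattGGGGtgtttcgc
The CALR and PDIA4 stretches are coding over all 30 bases, while the HSPA5 stretch lies before the coding sequence with 0 coding bases. The CALR stretch holds 26 purines of 30 bases, against 16 in PDIA4 and 15 in HSPA5. Over 50 nt, the 3 enriched CALR windows were 86.0 to 88.0% purine, and the 34 other full windows of that exon had a median of 47.0% and a highest value of 90.0%. In PDIA4 and HSPA5, the enriched windows with full length had 56.0% and 60.0% purine, within the ranges of the other windows of their exons, which ended at 58.0% and 72.0%.

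Over whole genes, 0 of the 9 mRNAs passed the test between the MDH2 IP and SMI in a fit with no replicate block. HSPA5 had 1104, 1529 and 511 CPM in MDH2 IP libraries 1, 2 and 3, against 752, 964 and 376 CPM in SMI and 1059, 1026 and 397 CPM in the IgG IP. The ranges of the 3 groups overlapped, and library 3 was the lowest of each. Its mean in the MDH2 IP was 1048 ± 511 CPM (SD, n = 3), a log2 fold change of 0.55 over SMI (SE 0.40, edgeR adjusted p = 0.377). DNAJB11 had 163, 223 and 95 CPM in the MDH2 IP, 154, 231 and 92.2 in SMI and 149.9, 143 and 32.9 in the IgG IP. The MDH2 IP and SMI values nearly coincided, with a log2 fold change of -0.03 and an approximate 95% interval from -0.72 to 0.67. SDF2L1, the member with the lowest level in the MDH2 IP and in SMI, had 82.7, 149 and 47.7 CPM in the MDH2 IP, 72.7, 102 and 35.8 in SMI and 169, 146 and 58.1 in the IgG IP. Its highest value was in IgG IP library 1, and all 3 groups overlapped.

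Of the lectins, CALR had the highest level of all members in each MDH2 IP library, and CANX had it in each SMI library. CALR counts were 1754, 2334 and 1010.3 CPM in the MDH2 IP, 1206, 1597 and 714 in SMI and 1364, 1380.2 and 713 in the IgG IP. The log2 fold change of CALR over SMI was 0.50 (SE 0.34, edgeR adjusted p = 0.335). CANX had 1063, 1304 and 814 CPM in the MDH2 IP against 1218, 1640.3 and 999.6 in SMI and 855, 908 and 757 in the IgG IP. All 3 IgG IP libraries lay below all 3 SMI libraries, whereas the MDH2 IP overlapped both. The log2 fold change of CANX was -0.32 (SE 0.23) for the MDH2 IP and -0.58 (SE 0.22) for the IgG IP against SMI, with edgeR adjusted p = 0.362 and 0.0959.

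Among the isomerases, P4HB had 1211, 1449 and 970.1 CPM in the MDH2 IP, 981, 1134 and 659 in SMI and 1132, 958 and 685 in the IgG IP. PDIA4 had 646, 815 and 339.9 CPM in the MDH2 IP, 396, 554 and 230.1 in SMI and 421, 487 and 207 in the IgG IP. The 2 log2 fold changes over SMI were 0.35 (SE 0.23) for P4HB and 0.57 (SE 0.36) for PDIA4, with edgeR adjusted p = 0.308 and 0.290. PDIA4 had the largest value of the 9 in this comparison, and its groups still overlapped. PDIA3 had 233, 302 and 166 CPM in the MDH2 IP, 171, 233 and 123 in SMI and 230.1, 307 and 161 in the IgG IP. PDIA6 had 218, 249.9 and 151 CPM in the MDH2 IP, 205, 270.2 and 150.5 in SMI and 227, 148 and 124 in the IgG IP. Both sets overlapped, with log2 fold changes over SMI of 0.37 (SE 0.27) for PDIA3 and -0.05 for PDIA6. The approximate 95% interval of PDIA6 ran from -0.53 to 0.43.

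**Figure D1:**
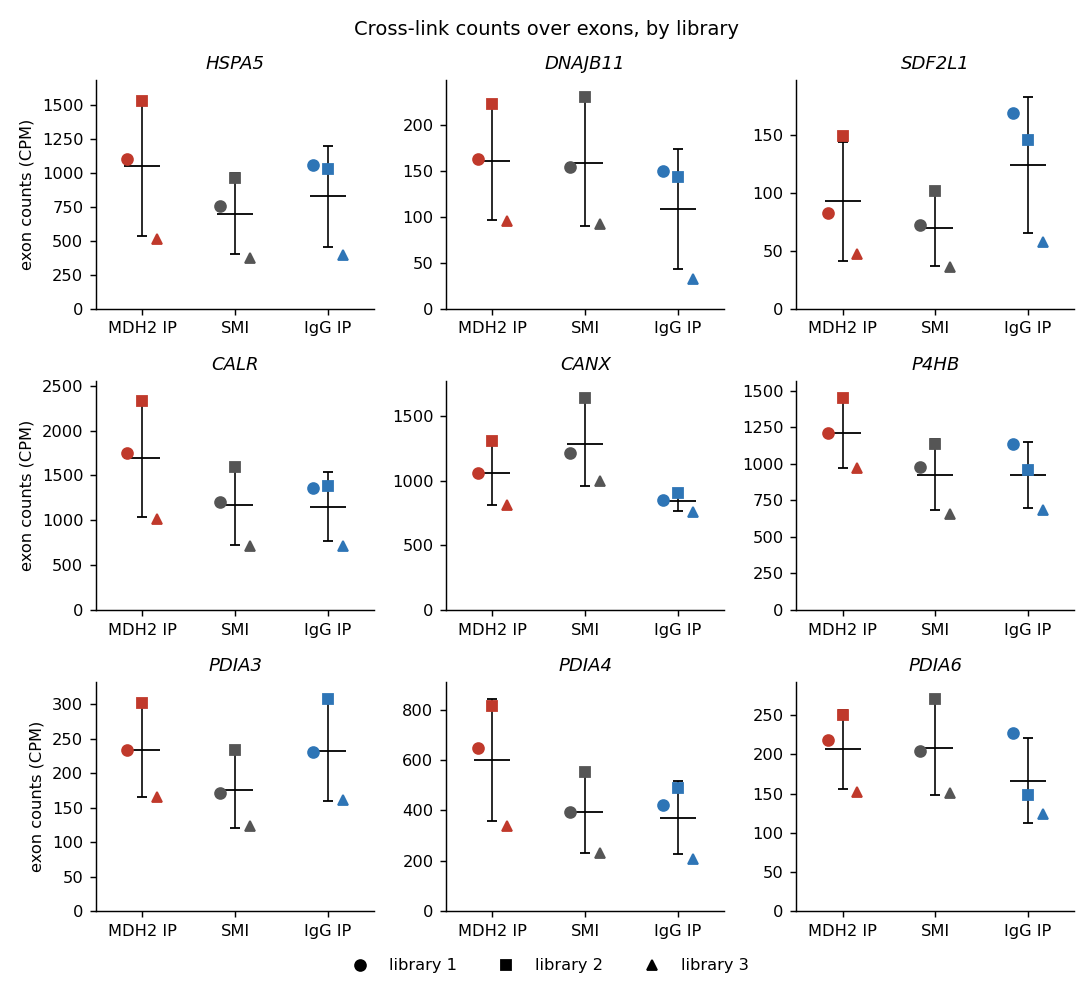
Exon counts of the 9 members in each library, in CPM on a linear axis from 0, with a panel for each gene, circles for library 1, squares for library 2 and triangles for library 3. Black lines give mean and SD of 3 libraries, and the triangle is the lowest point of its group in all 27 cases.

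In total, 6 of the 9 members lay above 0 in the MDH2 IP against SMI, 0 passed an adjusted p of 0.05 in edgeR's quasi-likelihood test and 0 had an unadjusted p under 0.05. DESeq2 also called 0 in each of the 3 comparisons. Of all 13923 genes tested, 8.60% were higher and 10.7% lower. The median log2 fold change was 0.37 over the members and 0.00 over all genes. Against the IgG IP, 7 of 9 lay above 0 and again 0 passed, with 0 at an unadjusted p under 0.05, where 0.302% of 12573 genes were higher and 1.80% lower. Between the IgG IP and SMI, 5 of 9 lay above 0 and 0 passed, where 9.58% of 12788 genes were higher and 5.98% lower. CANX and SDF2L1 were the 2 at an unadjusted p under 0.05, as were 3841 of the 12788 genes. With the replicate number as a block, 7 of the 9 members were called in the MDH2 IP against SMI, 6 higher and 1 (CANX) lower, where 21.1% of all genes were higher and 20.6% lower. HSPA5, SDF2L1, CALR, P4HB, PDIA3 and PDIA4, the 6 called higher, were above SMI in all 3 pairs of libraries of the same number, and the edgeR adjusted p was lowest for PDIA4 (4.26e-06) and highest for SDF2L1 (0.0225). The SMI was taken from the input of an IP, but no label says that libraries of the same number share a lysate. Each group of libraries enters 2 of the 3 comparisons, so the comparisons are not independent, and their values are only given side by side.

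The libraries numbered 3 held the lowest level of each member in each group, 27 of 27 cases, and those numbered 2 the highest in 22 of 27. The summed level of the 9 members was 6476, 8354 and 4105 CPM in the MDH2 IP, 5155, 6725 and 3379 in SMI and 5607, 5503 and 3135 in the IgG IP. Within a group the coefficient of variation ran from 19.8% for P4HB to 55.2% for SDF2L1 in the MDH2 IP, and from 25.3% for CANX to 47.3% for SDF2L1 in SMI. In 5 of the 6 other ER lists described further on, the summed level was also lowest in library 3 of every group, the exception being the disulfide isomerase family. The part of this pattern in the differences between groups was not tested. A fit without the libraries numbered 3, chosen after seeing these values, also called 0 of 9 members in each comparison.

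To compare levels between genes, CPM were divided by the number of exon windows listed for a gene, a rough stand-in for its exon length. Some exons were not listed in full, such as PDIA3 exon 14 with 96 of 106 windows and DNAJB11 exon 2 with 19 of 29. The windows of PDIA6 began at exon 7. The order of genes below carries this limit. In SMI, CALR stood first with 9.09 ± 3.43 CPM per window (SD, n = 3), followed by CANX with 4.73 ± 1.20, P4HB with 3.71 ± 0.974 and HSPA5 with 3.71 ± 1.59. Then came PDIA4 with 2.59 ± 1.07, PDIA6 with 1.91 ± 0.550, SDF2L1 with 1.38 ± 0.651, PDIA3 with 0.981 ± 0.308 and DNAJB11 with 0.652 ± 0.284. In the MDH2 IP the order was CALR with 13.2 ± 5.14, HSPA5 with 5.58 ± 2.72, P4HB with 4.86 ± 0.962, PDIA4 with 3.95 ± 1.58 and CANX with 3.90 ± 0.901 in the first places. In SMI, each neighbouring pair from CANX down to PDIA3 differed by less than the larger SD of the pair, and so did each pair from HSPA5 to CANX in the MDH2 IP.

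Of single exons, P4HB exon 1 rose in the MDH2 IP, whereas the last exons of CANX and PDIA6 fell, and these were the 3 member exons called of 91 tested. Of 58684 exons of all genes, 2.66% were higher and 5.52% lower. P4HB exon 1 had 156, 206 and 144 CPM in the MDH2 IP, 75.0, 91.6 and 50.5 in SMI and 196, 112 and 62.0 in the IgG IP. All 3 MDH2 IP libraries lay above all 3 SMI libraries, while the IgG IP overlapped both groups. The log2 fold change over SMI was 1.02 (SE 0.23, edgeR adjusted p = 0.0114). This call was lost without SMI library 1 (adjusted p = 0.0673) and in a fit of all 9 libraries (adjusted p = 0.0573), with log2 fold changes of 1.04 and 1.01. With the replicate block, 19 of the 91 exons were called, 15 higher and 4 lower, where 6.86% of all exons were higher and 9.16% lower.

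CANX exon 22, the last, had 381, 448 and 294 CPM in the MDH2 IP, 715, 892 and 583 in SMI and 339.9, 383 and 343 in the IgG IP. Every library of either IP lay below every SMI library. The log2 fold changes over SMI were -1.17 (SE 0.20, edgeR adjusted p = 0.00111) for the MDH2 IP and -1.14 (SE 0.24, edgeR adjusted p = 0.00389) for the IgG IP. PDIA6 exon 20, also the last, had 44.7, 42.5 and 42.9 CPM in the MDH2 IP against 63.3, 89.5 and 51.7 in SMI and 59.8, 35.7 and 31.0 in the IgG IP. Its log2 fold change in the MDH2 IP was -0.86 (SE 0.23, edgeR adjusted p = 0.0310). The PDIA6 call was lost under total-count scaling, in the fit of all 9 libraries, and without either of MDH2 IP libraries 1 and 2 or SMI libraries 1 and 2, with adjusted p between 0.0787 and 0.164. Between the MDH2 IP and the IgG IP, 0 of 87 member exons passed in edgeR, where 0.184% of all exons were higher and 1.25% lower. An unadjusted p under 0.05 was found in 11 of the 87, and in 5989 of the 42945 exons of all genes. Between the IgG IP and SMI, 2 of 88 passed, CANX exon 22 and PDIA3 exon 1, where 4.89% were higher and 4.78% lower.

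**Figure D2:**
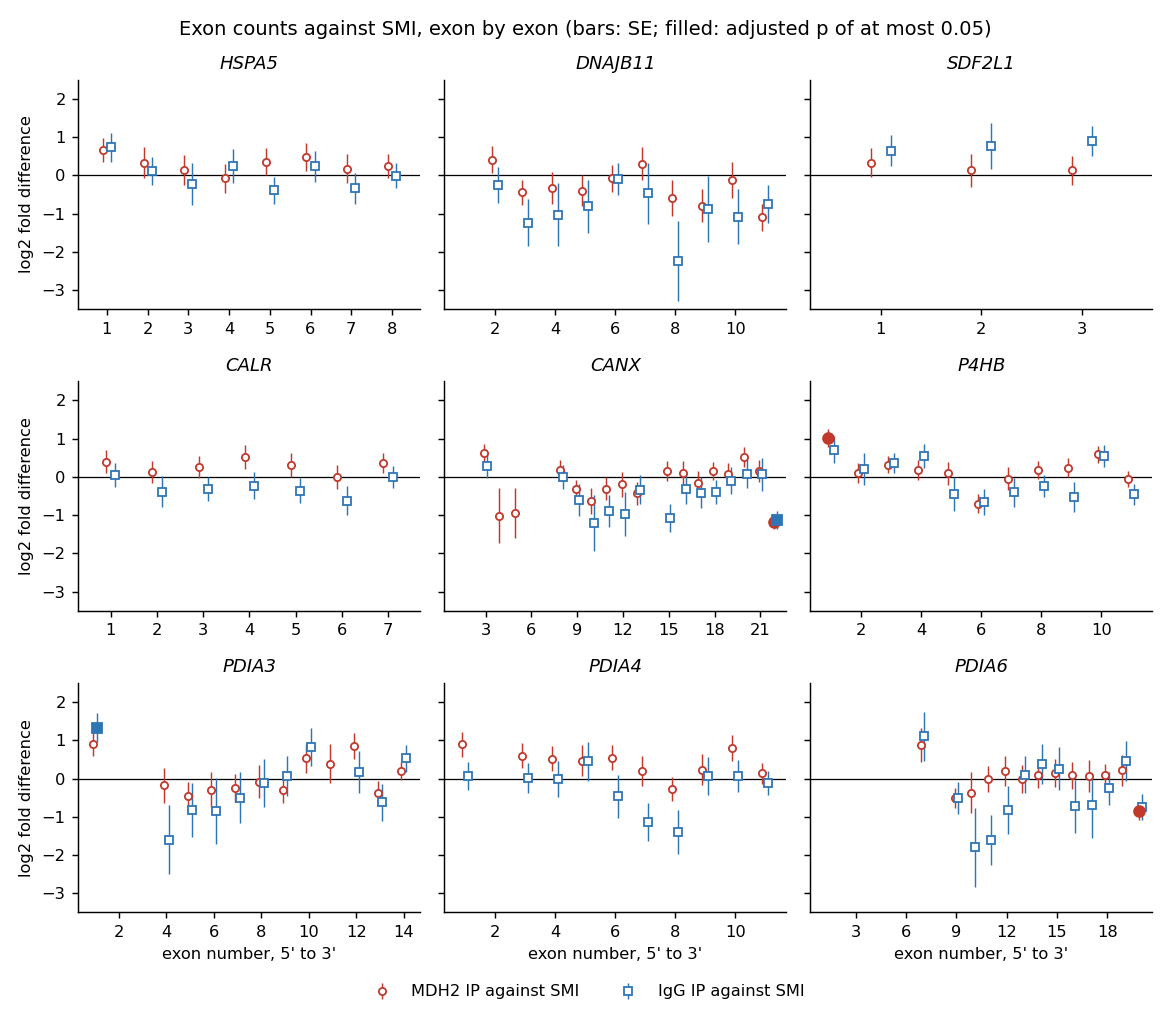
Log2 fold difference of each exon of the 9 members against SMI, for the MDH2 IP (circles) and the IgG IP (squares), by exon number from 5' to 3', with SE as bars and filled points at an adjusted p of at most 0.05. P4HB exon 1 lies at 1.02 and the last exons of CANX and PDIA6 at -1.17 and -0.86 in the MDH2 IP, with the IgG IP on the same side of 0 in each.

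Whether the first exon moved apart from the rest of its gene was tested in a model with a term for each library, which removes the level of the gene. In the reference transcripts of GENCODE v44, the first exon of these genes begins with the 5' UTR and, except in CANX, reaches into the coding sequence. Exon 1 as counted here can differ from it in length. In P4HB it had 16 listed windows, while the reference first exon is 209 nt long. In CALR it had 16 tested windows against 162 nt, and the gene had 7 listed exons against 9 in the reference transcript. In 6 members, exon 1 had enough counts, and all 6 values lay above 0 in the MDH2 IP against SMI. The share of P4HB counts that fell in exon 1 was 12.9, 14.2 and 14.9% in the MDH2 IP, 7.65, 8.08 and 7.66% in SMI and 17.3, 11.7 and 9.04% in the IgG IP. All libraries of either IP lay above those of SMI. For PDIA3 the share was 18.1, 20.9 and 18.5% in the MDH2 IP, 10.9, 13.3 and 10.8% in SMI and 20.5, 25.9 and 26.5% in the IgG IP, again with no overlap between SMI and either IP.

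P4HB exon 1 was 0.94 (SE 0.15, edgeR adjusted p = 7.70e-04) and PDIA3 exon 1 was 0.84 (SE 0.24, edgeR adjusted p = 0.0172) higher, on the log2 scale, than the other exons of the gene. These 2 of 6 passed, where 29.2% of 4965 genes were higher and 0.363% lower and the median of all genes was 0.78. The median over the 6 members was 0.45, below that of all genes. HSPA5 had 0.44 (SE 0.17), PDIA4 0.46 (SE 0.20), SDF2L1 0.12 (SE 0.31) and CALR 0.09 (SE 0.14), with adjusted p between 0.0617 and 0.770. Without MDH2 IP library 2 PDIA3 was lost (adjusted p = 0.0664), and without MDH2 IP library 1 or SMI library 1 HSPA5 was gained, which made 3 members.

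Against the IgG IP, the first exons of the 6 members gave 0 calls in edgeR and 0 at an unadjusted p under 0.05, with 0.214% of 4206 genes higher and 0.713% lower. Their log2 values ran from -0.40 for PDIA3 to 0.33 for SDF2L1 and the 6 had a median of 0.01. When the IgG IP was set against SMI, HSPA5 with 0.74 (SE 0.25), PDIA3 with 1.25 (SE 0.35) and P4HB with 0.80 (SE 0.27) passed at edgeR adjusted p = 0.0469, 0.0198 and 0.0488, where 16.4% of 3239 genes were higher and 0.679% lower. The number called fell to 0 without SMI library 1 or 3 and to 1 without SMI library 2 or IgG IP library 1.

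Annotated exon 1 of CANX and DNAJB11 held almost no counts, and the windows of PDIA6 used here began at exon 7. For these 3 genes, the exon nearest the 5' end that reached 10 counts in 3 or more libraries was used instead, a choice made after the data were seen. These were exon 3 of CANX, exon 2 of DNAJB11 and exon 7 of PDIA6. CANX exon 3 had 108, 147 and 99.5 CPM in the MDH2 IP, 62.1, 80.5 and 55.0 in SMI and 84.7, 122 and 50.3 in the IgG IP. All MDH2 IP libraries were above all SMI libraries. With this definition, all 9 values lay above 0 in the MDH2 IP against SMI, where the median of all 9970 genes was also above 0, at 0.55. CANX with 1.21 (SE 0.16, edgeR adjusted p = 1.92e-04), PDIA3 and P4HB passed, 3 of 9, where 16.3% of the 9970 genes were higher and 0.772% lower. For the IgG IP over SMI, CANX with 1.02, PDIA6 with 1.49 and PDIA3 with 1.25 passed, 3 of 9, where 12.4% of 5959 genes were higher and 0.873% lower. Between the MDH2 IP and the IgG IP 0 of 9 passed in edgeR, with 0 at an unadjusted p under 0.05, where 0.215% of 7458 genes were higher and 0.979% lower.

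The last exon was examined after the data were seen. In the reference transcripts of GENCODE v44 the last exon is mostly 3' UTR in 8 of these 9 genes. The 3' UTR takes from 64.0% of its length in PDIA4 to 98.3% in CANX, and 31.3% in SDF2L1. The last exon counted here can differ from it in length. In the MDH2 IP against SMI, 4 of 9 members were lower in the last exon than in their other exons, where 22.0% of 8567 genes were lower and 1.42% higher. CANX changed most: exon 22 held 35.8, 34.3 and 36.1% of its counts in the MDH2 IP, 58.7, 54.4 and 58.4% in SMI and 39.8, 42.2 and 45.3% in the IgG IP. The IgG IP lay between the other 2 groups with no overlap. The difference for CANX was -1.28 (SE 0.12, edgeR adjusted p = 1.87e-09) in the MDH2 IP and -0.87 (SE 0.18, edgeR adjusted p = 0.00403) in the IgG IP against SMI.

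DNAJB11 exon 11 held 9.50, 9.49 and 10.7% of the gene's counts in the MDH2 IP, 21.0, 17.5 and 15.7% in SMI and 20.8, 9.09 and 17.6% in the IgG IP. Its difference against SMI was -1.03 (SE 0.22, edgeR adjusted p = 6.43e-04). PDIA6 exon 20 followed with -0.85 (SE 0.20, edgeR adjusted p = 0.00189) and P4HB exon 11 with -0.35 (SE 0.12, edgeR adjusted p = 0.0324). P4HB was lost when any of 4 single libraries was left out, with adjusted p from 0.0665 to 0.133. HSPA5, PDIA4, SDF2L1, PDIA3 and CALR ranged from -0.35 to 0.08 and did not pass, and the median of all 8567 genes was -0.42. CANX was the 1 member of 9 called in the IgG IP against SMI, where 6.53% of 7395 genes were lower and 0.920% higher, and this call was lost without SMI library 1 or 3. Between the MDH2 IP and the IgG IP, 0 of 9 passed in edgeR, where 0.886% of 7333 genes were lower and 1.12% higher. An unadjusted p under 0.05 was found in 1 of the 9 (CANX, -0.42, SE 0.19), and in 1037 of the 7333 genes.

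**Figure D3:**
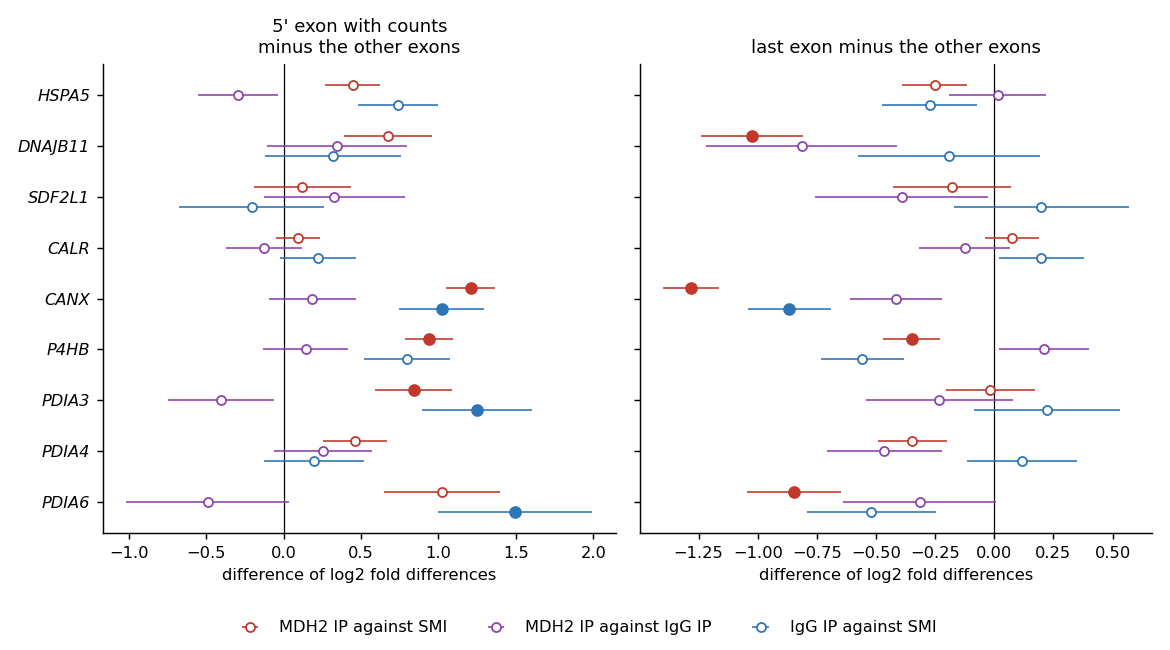
Difference between the 5' exon that has counts (left) or the last exon (right) and the other exons of the same gene, on the log2 scale, with SE as bars and filled points at an adjusted p of at most 0.05. Against SMI the 5' values of the MDH2 IP lie from 0.09 to 1.21 and its last-exon values from -1.28 to 0.08, and no value of the MDH2 IP against the IgG IP is filled.

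At the level of 50 nt windows, 708 windows of the members were tested between the MDH2 IP and SMI. A window was called where its adjusted p did not exceed 0.05 and its log2 fold change reached 1 in either direction, which gave 13 enriched and 47 lower windows. The same held for 4.04% and 10.0% of 51108 windows of all genes. Scaled to total counts in place of TMM, the members had 195 enriched and 4 lower windows. That scaling moved the median log2 fold change of all windows from 0.05 to 0.62.

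P4HB exon 1 held 5 of the enriched windows, at positions 6 to 12 of 16 from the 5' end, with log2 fold changes from 1.30 to 2.25. The window with the largest of them, the sixth, had 9.09, 10.6 and 8.64 CPM in the MDH2 IP, 2.00, 1.16 and 2.37 in SMI and 7.14, 1.62 and 5.81 in the IgG IP (edgeR adjusted p = 6.34e-04). The window of P4HB with the most MDH2 IP counts, the eleventh, had 24.2, 32.9 and 23.5 CPM in the MDH2 IP against 10.9, 12.5 and 7.11 in SMI and 34.8, 22.7 and 9.68 in the IgG IP. In both windows the MDH2 IP lay above SMI in all libraries and overlapped the IgG IP in the eleventh alone. HSPA5 exon 1 had 1 enriched window, the first listed at the 5' end, with 15.1, 27.3 and 11.9 CPM in the MDH2 IP, 7.45, 9.25 and 2.37 in SMI and 16.1, 17.9 and 7.74 in the IgG IP (log2 fold change 1.41, edgeR adjusted p = 0.0424). PDIA3 exon 1 had 1 with 5.87, 11.3 and 4.77 CPM in the MDH2 IP, 1.43, 3.70 and 0.948 in SMI and 10.7, 13.0 and 9.68 in the IgG IP (1.71, edgeR adjusted p = 0.0292). For both genes the IgG IP values lay above SMI too, except for HSPA5 library 3.

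CANX exon 3 had 1 enriched window, with 18.4, 22.6 and 17.9 CPM in the MDH2 IP, 8.88, 10.4 and 5.92 in SMI and 13.4, 16.2 and 5.81 in the IgG IP (1.12, edgeR adjusted p = 0.0382). The other 5 enriched windows lay away from the 5' end. In CALR, windows 3 to 5 of 38 in exon 7 were enriched, the purine-rich stretch shown above, with log2 fold changes of 1.36, 1.39 and 1.37 and edgeR adjusted p from 0.0282 to 0.0451. The middle window had 29.9, 48.4 and 13.7 CPM in the MDH2 IP, 11.7, 14.6 and 6.64 in SMI and 17.8, 14.6 and 9.68 in the IgG IP. Here MDH2 IP library 3 lay within the SMI range. The highest window of CALR, the twentieth of the same exon, differed little, with 97.7, 95.8 and 51.2 CPM in the MDH2 IP, 79.6, 93.9 and 49.8 in SMI and 73.1, 81.2 and 48.4 in the IgG IP (log2 fold change 0.04).

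In PDIA4, the first 2 of 9 windows of exon 6 were enriched, with log2 fold changes of 1.61 and 1.63. The second had 7.19, 10.8 and 4.17 CPM in the MDH2 IP, 2.00, 3.24 and 1.42 in SMI and 1.78, 4.87 and 0 in the IgG IP. These MDH2 IP values stood above those of SMI in all libraries. Against the IgG IP, the same 2 windows had log2 fold changes of 1.46 and 1.63, the 2 largest among the 13, and did not pass. The 13 enriched windows as a set had a median log2 fold change of 0.76 against the IgG IP, from -0.70 in PDIA3 to 1.63 in PDIA4, and 0 of them were enriched there. In the IgG IP against SMI, 9 of the 13 could be tested, and the rest had too few counts. All 9 lay above 0 with a median of 1.30, and 3 of them were themselves enriched, 2 in P4HB and 1 in HSPA5. The 13 were chosen by their MDH2 IP and SMI counts. Each of these 2 comparisons reuses the MDH2 IP or the SMI libraries, so these signs and medians are no separate finding.

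The lower windows were 46 in CANX exon 22 and 1 in P4HB exon 6. The 46 spread over positions 12 to 112 of 116, so that the loss ran along the exon and did not sit in 1 place. Of the 89 tested windows of this exon, 88 lay below 0 with a median of -1.22. The largest difference was -2.80, in a window with 0.757, 0.737 and 0 CPM in the MDH2 IP against 3.72, 4.86 and 2.61 in SMI and 0.892, 1.62 and 1.94 in the IgG IP. The IgG IP against SMI gave 75 of 85 windows below 0 with a median of -0.96 and 0 called, and between the MDH2 IP and the IgG IP 15 of 35 were below 0 with a median of 0.15. The P4HB window, at the 3' end of its exon, had 7.76, 7.86 and 5.36 CPM in the MDH2 IP, 15.2, 17.6 and 8.29 in SMI and 4.46, 4.87 and 5.81 in the IgG IP.

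**Figure D4:**
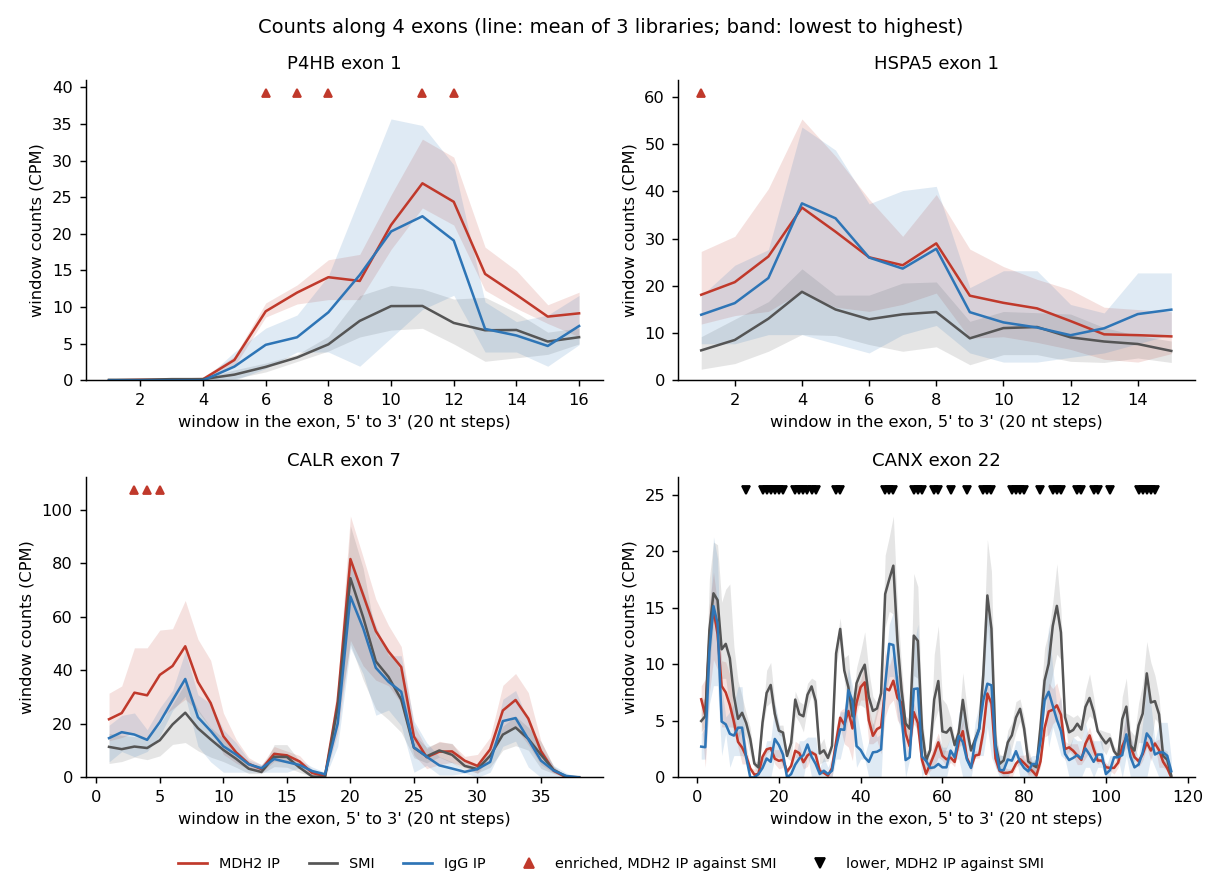
Window counts in CPM along P4HB exon 1, HSPA5 exon 1, CALR exon 7 and CANX exon 22, by window from 5' to 3' in steps of 20 nt, with the mean of 3 libraries as a line, the lowest to highest library as a band, and triangles at windows called in the MDH2 IP against SMI. In P4HB exon 1 the means of both IPs run above that of SMI from the sixth to the twelfth window, and in CANX exon 22 both run below it over most of the exon.

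The count of enriched windows rested on single libraries. It was 56 without MDH2 IP library 3, 15 without SMI library 2, and 2, 3, 4 and 5 without SMI library 1, SMI library 3, MDH2 IP library 1 and MDH2 IP library 2. The number of lower windows was 14 without MDH2 IP library 1 or SMI library 2, 17 without SMI library 1, 28 without MDH2 IP library 3 and 38 without the others. Between the MDH2 IP and the IgG IP, 458 member windows were tested and 0 were enriched in edgeR, where 0.148% of 30427 windows were enriched and 4.71% lower. An unadjusted one-sided p under 0.05 was found in 70 of the 458. Of all 30427 windows, 4766 had an unadjusted two-sided p under 0.05. The one-sided count over all windows is not given, so the 70 are not read as a result about the members. The 1 lower window, in PDIA3 exon 14, had 3.79, 2.70 and 2.38 CPM in the MDH2 IP and 5.35, 17.9 and 3.87 in the IgG IP, and its call was lost without any of 4 libraries, IgG IP library 2 among them. In the IgG IP against SMI, 12 of 475 member windows were enriched, where 6.14% of 26669 were enriched and 6.40% lower: 6 in HSPA5 exon 1, 3 in P4HB exon 1 and 3 in SDF2L1. The SDF2L1 window with the largest value, 2.40 (SE 0.48, edgeR adjusted p = 7.11e-05), had 14.3, 17.9 and 7.74 CPM in the IgG IP against 3.15, 3.93 and 2.13 in SMI and 5.68, 8.36 and 2.38 in the MDH2 IP. This count of 12 was 1, 2 and 1 without SMI libraries 1, 2 and 3 and 5 without IgG IP library 1.

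The highest windows of the other 6 members were not called in the MDH2 IP against SMI. They lay in exon 1 of HSPA5 with 36.6 ± 18.3 CPM in the MDH2 IP and 18.7 ± 7.82 in SMI (SD, n = 3), in exon 3 of CANX with 28.6 ± 8.07 and 16.7 ± 3.29, and in exon 11 of PDIA4 with 13.7 ± 4.50 and 11.9 ± 5.02. Those of PDIA6 (exon 11), SDF2L1 (exon 1) and DNAJB11 (exon 2) had 6.53 ± 3.01, 5.76 ± 3.98 and 4.60 ± 2.65 CPM in the MDH2 IP. The HSPA5 window was 1 of the 6 enriched in the IgG IP against SMI, with a log2 fold change of 1.34.

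Introns held a small part of the members' counts. Their share of exon and intron counts together was 8.81 to 12.0% in the MDH2 IP, 11.2 to 15.6% in SMI and 15.2 to 21.0% in the IgG IP, against 40.1 to 46.4%, 50.2 to 56.1% and 61.5 to 69.0% over all genes. CALR had 2.96 ± 0.923% and HSPA5 3.69 ± 1.63% in the MDH2 IP (SD, n = 3), the lowest values, and PDIA4 had the highest with 18.9 ± 2.70%. P4HB had 14.4 ± 1.44% in the MDH2 IP, 15.2 ± 1.90% in SMI and 28.6 ± 6.42% in the IgG IP, and no test was run on these shares.

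Related ER genes, from lists set up by function, were tested at the level of whole genes. In the rest of the HSP70 and HSP90 cycle, 1 of 13 genes was higher and 0 lower in the MDH2 IP against SMI, and the 1 was HSP90B1 (GRP94), the HSP90 of the ER. HSP90B1 had 2085, 2536 and 999 CPM in the MDH2 IP, 788, 1146 and 521 in SMI and 1074, 1361 and 687 in the IgG IP, with overlap between MDH2 IP library 3 and SMI library 2. Its log2 fold change was 1.16 (SE 0.36, edgeR adjusted p = 0.0486) over SMI and 0.81 (SE 0.33, edgeR adjusted p = 0.264) over the IgG IP. The first exon of HSP90B1 had 253, 342 and 147 CPM in the MDH2 IP, 79.0, 93.7 and 35.3 in SMI and 152, 334 and 215 in the IgG IP. It was 0.77 (SE 0.17, edgeR adjusted p = 0.00425) higher than the other exons in the MDH2 IP and 1.67 (SE 0.31, edgeR adjusted p = 0.00117) in the IgG IP against SMI.

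In the PDI family and thiol oxidation list, 1 of 16 genes was higher and 3 lower, with TMX1 (-0.80, SE 0.21) and TMX3 (-0.79, SE 0.21), membrane-bound oxidoreductases, the largest at edgeR adjusted p = 0.0255 and 0.0294. Of the glycoprotein folding and disposal genes, 2 of 19 were higher and 1 lower, with MOGS, the first glucosidase to trim the N-glycan, at 0.90 (SE 0.22) and LMAN1, a cargo lectin, at -0.87 (SE 0.18). Of the prolyl isomerases and collagen chaperones, 3 of 14 were higher and 0 lower, with FKBP10 at 1.02 (SE 0.14) and FKBP2 at 0.69 (SE 0.20). Of the translocon and signal peptide genes, 0 of 25 were higher and 6 lower, with SSR3 at -1.38 (SE 0.22) and SSR1 at -0.95 (SE 0.19), subunits of the translocon-associated complex. Of the unfolded protein response genes, 0 of 16 were higher and 3 lower, with the protease MBTPS2 at -1.05 (SE 0.17) and the phosphatase subunit PPP1R15B at -0.47 (SE 0.15). These counts stand beside 8.60% higher and 10.7% lower over all genes. Against the IgG IP, 0 genes of these 6 lists were higher and 1 was lower, FKBP2 with -1.19 (SE 0.27, edgeR adjusted p = 0.0474). Of the hepatocyte markers, 2 of 12 were higher and 1 lower over SMI, with APOA1, the main protein of high-density lipoprotein, at 0.65 (SE 0.16). Of the markers of other cell types, 4 could be tested and 0 passed in edgeR.

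At the ends of the genes, the same tests were run on the 6 ER lists. In the MDH2 IP against SMI the first exon was higher than the others in 3 of 10 genes of the HSP70 and HSP90 cycle, 5 of 13 of the PDI family, 6 of 17 of glycoprotein folding, 1 of 6 of the prolyl isomerases, 10 of 13 of the translocon and 4 of 11 of the unfolded protein response. The last exon was lower in 6 of 11, 4 of 14, 7 of 18, 3 of 12, 7 of 22 and 5 of 16 genes of these lists in the same order. No gene of the 6 lists was called in the opposite direction at either end, and 0 were called at either end in edgeR against the IgG IP. These stand beside the 29.2% and 22.0% of all genes given above. The levels most like the summed profile of the members over the 9 libraries were those of ANKS1B, OSBP, GARS1, NAV2 and GLG1, with Pearson's r of log2 CPM from 0.978 to 0.985 among 8126 genes with a mean of at least 20 CPM. All 5 were lowest in library 3 of each group, as the members were, with OSBP for example at 511, 621 and 333 CPM in the MDH2 IP. The 5 were chosen by likeness to this profile over the same libraries, so the shared low is no separate finding.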

How the data were processed

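Cross-link sites of eCLIP libraries from Huh7 cells were counted by the authors, and the deposited values are raw counts per window, with no normalization. Per the labels and the study's methods, cutadapt, STAR and HTSeq tools were used on hg38, a site is the base before the start of an alignment, and exons and introns of GENCODE v23 were cut into windows of 50 nt in steps of 20 nt. All 9 libraries were used, in 3 groups taken from the labels, and 0 columns were left unused. Of 34950 Ensembl identifiers, 33751 matched GENCODE v44, which gave the symbols. The members and lists were chosen with earlier results of these data known.

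Exon windows were summed per exon and per gene. Features that reached 10 counts in 3 or more libraries of a comparison were tested with edgeR 4.0.16 (TMM, quasi-likelihood test) in R 4.3.3, with Benjamini-Hochberg adjustment over all features and a threshold of 0.05. Windows used a one-sided p and had to change by 1 or more on the log2 scale. First and last exons were tested against the other exons in a model with a term for each library. Intervals are 95%. DESeq2 1.42.0 and limma 3.58.1 served as alternatives, with other scalings, filters, fits and libraries left out. Named were all members, their called windows and highest window, 2 genes of each other list with the largest change past the threshold, HSP90B1, and the 5 genes most like the members' summed profile. The tests were also run on simulated counts, drawn with no effect shared by libraries of the same number. That run therefore cannot vouch for the fit without a block. Counts carry counting error that is largest in the IgG IP. The number of libraries limits every test. Replicate pairs differed by more than sampling noise.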

Additional observations from a re-analysis of the deposited data

How the results depend on the processing

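At whole-gene level, 0 members were called in any fit that left out 1 library. With every feature of at least 1 count tested, 3 members were called between the MDH2 IP and SMI, 2 between the MDH2 IP and the IgG IP and 1 between the IgG IP and SMI. The labels do not say whether replicate numbers pair the libraries, and the fit without a block was kept as the main one. Deviations of libraries from their group mean were correlated over 13978 genes. Same-number values ran from 0.0754 to 0.497 between the MDH2 IP and SMI and from -0.0084 to 0.258 between the IPs. Between the IgG IP and SMI they ran from 0.0347 to 0.253. Different-number values, in the same order, ran from -0.483 to 0.0614, -0.259 to 0.0603 and -0.235 to 0.0284. With the replicate block, 7, 1 and 2 members were called at gene level in these comparisons, 19, 5 and 5 exons, and 34 enriched windows in the first, 0 lower windows in the second, and 1 lower window and 0 first exons in the third. Every MDH2 IP library correlated best with the SMI library of its own number, a hint from the data. The paper took the SMI from the input before the IP, but no label pairs libraries by number. Between the MDH2 IP and SMI, the 3 member exons became 10 with total counts, 8 with the 1-count filter, 1 with all 9 libraries fitted together and 8 without the libraries numbered 3, an alternative chosen after seeing the data, and 1 to 8 when single libraries were left out, with 8 without MDH2 IP library 3, 5 without SMI library 3 and 1 without SMI library 1. The 2 first exons became 1 with that filter, with limma and with all 9 libraries, and 1 to 3 with 1 library left out. The 4 last exons became 2 with limma. The 13 enriched windows became 1 at a log2 fold change of 2, 195 with total counts, 7 with DESeq2 and 22 without the libraries numbered 3, and 2 to 56 with 1 library left out. The 47 lower windows became 4 at that threshold, 4 with total counts, 27 with DESeq2, and 14 to 38. With total counts, 12171 windows of all genes were enriched and 2380 lower, against 2066 and 5110 with TMM, and the median over genes moved from 0.00 to 0.17. Between the IPs, 0 exons became 1 with total counts, with a 5-count filter, with DESeq2 and with all 9 libraries, 9 with the 1-count filter and 0 to 1 with 1 library left out. The 1 lower window became 0 with a two-sided p, a log2 fold change of 2, total counts, the 5-count filter, DESeq2 and without the libraries numbered 3, and 0 to 1 with 1 library left out. Between the IgG IP and SMI, the 2 exons became 7 with the 1-count filter and 1 to 5 with 1 library left out, with 1 without SMI library 1 or IgG IP library 2, 4 without IgG IP library 1 and 5 without IgG IP library 3. The 3 first exons became 0 with the 1-count filter and limma, 1 with the 5-count filter and without the libraries numbered 3, and 0 to 3. The 1 last exon became 0 with limma, 2 with all 9 libraries, and 0 to 2, with 2 without IgG IP library 2 or 3. The 12 enriched windows became 1 at a log2 fold change of 2, 29 with total counts, 5 with the 5-count filter, 1 with DESeq2, 6 with all 9 libraries, 1 without the libraries numbered 3, and 1 to 17. The 0 lower windows became 1 with DESeq2 size factors, 4 with the 5-count filter, and 0 to 1. The 1-count filter was not run on windows. The cause of these changes was not tested.

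Of the members' log2 values, 23 changed sign in some alternative, none of them past the threshold either way. Over SMI, DNAJB11 became 0.14 with total counts, 0.0148 with all 9 libraries and 0.00431 with non-overlapping windows, PDIA6 became 0.11 with total counts, and the last exon of PDIA3 became 0.00601 without the libraries numbered 3. Against the IgG IP, PDIA3 became 0.0210 with total counts, 0.0951 with the 1-count and 0.0167 with the 5-count filter, the first exon of P4HB became -0.12 without the libraries numbered 3, and the last exon of HSPA5 became -0.0206 with limma. In the IgG IP against SMI, PDIA4 became 0.0322 with total counts and 0.0905 with non-overlapping windows, and its last exon -0.0652 without the libraries numbered 3. CALR became -0.125, -0.0410 and -0.0362, and P4HB -0.0978, -0.0141 and -0.0253, with the 1-count filter, the 5-count filter and without the libraries numbered 3. With 1 library left out, values over SMI ran from -0.33 to 0.35 for DNAJB11, -0.13 to 0.75 for SDF2L1, -0.26 to 0.18 for PDIA6, -0.0033 to 0.28 for the first exon of SDF2L1 and -0.17 to 0.13 for the last exon of PDIA3. Against the IgG IP they ran from -0.0837 to 0.64 for HSPA5, -0.28 to 0.21 for PDIA3, -0.0057 to 0.51, -0.33 to 0.0444 and -0.0746 to 0.47 for the first exons of SDF2L1, CALR and P4HB, and -0.12 to 0.11, -0.55 to 0.0341 and -0.28 to 0.0172 for the last exons of HSPA5, PDIA3 and CALR. In the IgG IP against SMI they ran from -0.0710 to 0.62 for HSPA5, -0.37 to 0.25 for PDIA4, -0.30 to 0.26 for CALR, -0.21 to 0.21 for P4HB, -0.38 to 0.13 and -0.10 to 0.42 for the first exons of SDF2L1 and PDIA4, and -0.88 to 0.22, -0.12 to 0.65, -0.0360 to 0.30 and -0.0337 to 0.53 for the last exons of DNAJB11, SDF2L1, PDIA4 and PDIA3.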
